A study of Caenorhabditis elegans with 2 samples.

Results

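The mir-58/80 family is a set of microRNAs (miRNAs) of Caenorhabditis elegans related to bantam of Drosophila. Its members here were all loci of the deposited miRNA table named miR-58, miR-80, miR-81, miR-82, miR-1834 or miR-2209, with any added letter and from either arm. The rule found 16 of the 375 mature miRNA loci, from 8 hairpins: cel-miR-58, cel-miR-58b, cel-miR-80, cel-miR-81 and cel-miR-82, and the hairpins mir-2209a, mir-2209b and mir-2209c. Under that name, miR-1834 was not analysed here, because no locus of the table carried it. Reads were found for 12 of the 16 loci, and 7 loci had the 20 or more reads, vehicle and enoxacin added up, that were required for comparison.

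Both groups were whole worms of the strain N2, the standard laboratory wild type, with the age stated as Day 1. Per the labels, one group received the agent enoxacin, a fluoroquinolone antibiotic known to promote miRNA processing in mammalian cells, and the other received its vehicle. Dose and duration of treatment are not stated in those labels. The worms came from 3 separate experiments, but each group has 1 small RNA library, and whether the experiments were pooled is not stated.

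miRNAs are cut from hairpin precursors. The arm that is loaded into an Argonaute protein, called here the major arm, pairs through its seed near the 5′ end with sites in messenger RNAs and lowers their output, while the opposite arm is mostly degraded. Members of a family share a seed and can therefore act on the same targets. In C. elegans, worms that lack mir-58, mir-80, mir-81 and mir-82 together are small, move and lay eggs poorly and fail to form dauer larvae, although loss of single members has milder effects. Known targets of the family include components of TGF-beta signalling, which sets body size and dauer entry, such as the ligand dbl-1 and the receptors sma-6, daf-1 and daf-4. The p38 kinase gene pmk-2 is another known target, and loss of mir-80 is known to lengthen lifespan. In Drosophila, bantam promotes growth and blocks cell death.

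The authors' library totals, recovered from their normalised columns, were 10698845 reads for vehicle and 8787665 for enoxacin. Of these, miRNA loci took 400555 and 332407 reads. Levels are given in RPM, the count scaled by these totals, and a single read (1 read) corresponds to 0.0935 RPM for vehicle and 0.114 RPM for enoxacin. Differences are given as the ratio of the enoxacin level to the vehicle level. Since a group is 1 library, no replicate error exists and no difference was tested. Intervals in parentheses are exact 95% intervals that cover counting error only. Fewer cells of a type and less miRNA per cell cannot be told apart in whole worms. Markers of muscle (miR-1-3p, at 403 RPM in vehicle and 364 in enoxacin), epidermis and glia (miR-228-5p, 122 and 123) and neurons (miR-124-3p, 16.3 and 13.8) were read in both libraries. The neuronal lsy-6 had no read in either. The 8 embryonic markers of the mir-35 family summed to 5643 RPM in vehicle and 5336 in enoxacin, so embryonic miRNAs were read in both libraries.

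The family hairpins lie on 3 chromosomes. By the deposited positions (build ce10, per the submitters' processing notes), mir-58, mir-58b and the 3 mir-2209 hairpins are on chromosome IV, mir-80 is on III, and mir-81 and mir-82 are on X. miR-58-3p lies on chromosome IV from 3233311 to 3233332 on the plus strand. miR-80-3p lies on chromosome III from 8865204 to 8865226 on the minus strand. miR-81-3p is on the plus strand of X from 2431131 to 2431152, and miR-82-3p on its minus strand from 2435266 to 2435287, with 4113 bases between them. All 8 hairpins were found by name in the Ensembl annotation of another build, WBcel235, which was used without its coordinates. There mir-58 sits in an intron of the protein-coding gene Y67D8A.2 on the same strand and overlaps an exon of the non-coding RNA gene Y67D8A.6. Both mir-81 and mir-82 lie in introns of gid-2, mir-82 on its strand and mir-81 opposite to it. mir-80 overlaps an exon of the non-coding RNA gene K01F9.6 on the opposite strand. The other 4 hairpins overlap no other annotated gene.

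The family as a whole held a larger part of the miRNA reads in enoxacin. Its 16 loci gave 43451 vehicle reads and 44858 enoxacin reads, or 4061 and 5105 RPM. The family thus took 10.8% of the vehicle miRNA reads (10.8 to 10.9%) and 13.5% of those in enoxacin (13.4 to 13.6%). The ratio of summed levels was 1.26 (1.24 to 1.27), and it was 1.14 when the libraries were scaled by the median of ratios instead. Without miR-58-3p the ratio was 1.10 (1.08 to 1.11), a log2 ratio of 0.136. Median-of-ratios scaling shifts all log2 ratios by -0.146, so the rest of the family has no settled direction. The 1 locus miR-58-3p thus set most of the difference.

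By the authors' totals, that locus accounted for 681 RPM, or 65.2%, of the family's net gain of 1043 RPM. miR-80-3p, the most abundant member, accounted for 318 RPM (30.5%) and miR-82-3p for 46.9 RPM (4.50%), while miR-81-3p differed by -7.28 RPM. These parts depend on the scaling. Under median of ratios the ratios were 2.47 for miR-58-3p, 1.01 for miR-80-3p and 0.966 for miR-82-3p. All miRNA loci together gained 387 RPM, and the 359 loci outside the family differed by -656 RPM in sum. No locus of the table had a larger gain in RPM than miR-58-3p. Under the authors' totals, the other 2 of the 3 loci that gained most were miR-54-3p, with 349 RPM, and miR-80-3p. miR-66-5p was the 1 locus with a larger difference in either direction (-1035 RPM).

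**Figure D1:**
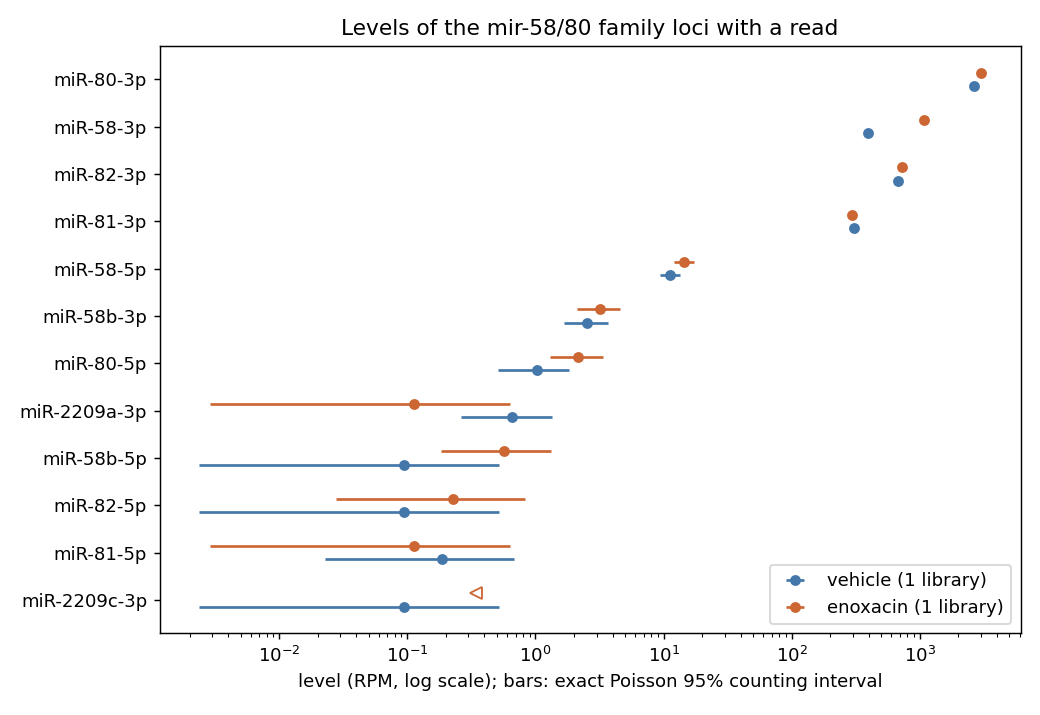
Levels in RPM (log axis) of the 12 family loci with a read, in the vehicle library (blue) and the enoxacin library (orange), with exact Poisson 95% counting intervals as bars; the open triangle marks the level that 3 reads would give where no read was found. The loci fall into 4 abundant 3p arms, at 298 RPM or more, and 8 loci at 14.6 RPM or less, and among the abundant ones miR-58-3p shows the widest gap between libraries, from 393 to 1073 RPM.

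miR-58-3p, the major arm of mir-58, had 4202 reads in vehicle and 9433 in enoxacin. These are 393 RPM (381 to 405) and 1073 RPM (1052 to 1095). It was the member with the clearest difference, its counting intervals lying far apart, and its ratio was 2.73 (2.64 to 2.83). In the order of all loci by reads it moved from rank 19 in vehicle to rank 7 in enoxacin. The 10 other loci with at least as many reads over both libraries (13635) had ratios between 0.610 and 1.31.

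miR-80-3p, the major arm of mir-80, remained the most abundant member in each library. Vehicle gave 28558 reads of it (2669 RPM) and enoxacin 26252 (2987 RPM). The enoxacin level was the higher of the 2, at a ratio of 1.12 (1.10 to 1.14), but this was 1.01 under median-of-ratios scaling. Its rank was 4 in vehicle and 3 in enoxacin.

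miR-82-3p and miR-81-3p come from the 2 neighbouring hairpins on X and closely resemble each other in sequence, so how the mapping assigned their reads bears on both values. miR-82-3p had 7256 reads (678 RPM) in vehicle and 6372 (725 RPM) in enoxacin. Its ratio of 1.07 (1.03 to 1.11) turned to 0.966 under median-of-ratios scaling and 0.973 under TMM (trimmed mean of M values), so it has no settled direction. miR-81-3p had 3264 reads (305 RPM) in vehicle and 2617 (298 RPM) in enoxacin. Its ratio was 0.976, with an interval that included 1 (0.927 to 1.03), whereas the interval lay below 1 under median-of-ratios scaling (0.882, 0.838 to 0.929), under TMM (0.888, 0.843 to 0.935) and with the miRNA table without its 3 most abundant loci (0.929, 0.882 to 0.979). A sum of the 2 does not depend on how reads were divided between them. Reads counted at both loci, or dropped for matching both, would still affect it. Summed, the pair had a ratio of 1.04 (1.01 to 1.07). This too turned, to 0.940 (0.914 to 0.967) under median-of-ratios scaling, 0.946 under TMM and 0.990 without the 3 most abundant loci, so the pair has no settled direction either.

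miR-58b-3p, from the second mir-58 hairpin, was rare. It had 27 reads (2.52 RPM) in vehicle and 28 (3.19 RPM) in enoxacin. Its ratio of 1.26 had an interval from 0.717 to 2.23. The ratio seen for miR-58-3p lies outside that interval, but differences within it, in either direction, were not detectable at this depth.

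The mir-2209 hairpins were hardly read at all. miR-2209a-3p had 7 reads in vehicle and 1 in enoxacin, and miR-2209c-3p had 1 and 0. Together the 6 mir-2209 loci had 8 reads against 1, a ratio of 0.152 with an interval from 0.00343 to 1.14. The other 4, miR-2209a-5p, miR-2209c-5p and both arms of mir-2209b, were at 0 reads throughout, and a count of 0 allows each of them a level of up to 0.280 RPM (vehicle) or 0.341 RPM (enoxacin). Loci under the minimum of 20 reads, 9 of the 16, were not counted as higher or lower.

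By the criterion used over the whole table, a ratio past 1.5-fold with a counting interval that excludes 1, 1 of the 7 compared members (14.3%) was higher in enoxacin, miR-58-3p, and 0 were lower. Over all 152 compared loci 13.2% were higher and 7.89% lower, 21.1% in all. The family's share is near that background and is no result about the family. Under the authors' totals the ratio was above 1 for 6 of the 7 members, and for 63.2% of all compared loci. Of these 6, miR-82-3p fell to 0.966 under median-of-ratios scaling. The intervals of miR-58-5p, miR-58b-3p and miR-80-5p included 1. The median ratio of the 7 members was 1.26, beside 1.09 over all compared loci, whose quartiles were 0.884 and 1.35. That family median is the value of the rare miR-58b-3p (27 and 28 reads). Among the 5 compared 3p arms the median was 1.12. miR-58-3p lay well outside these quartiles, whereas the 3 other abundant members lay inside them.

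**Figure D2:**
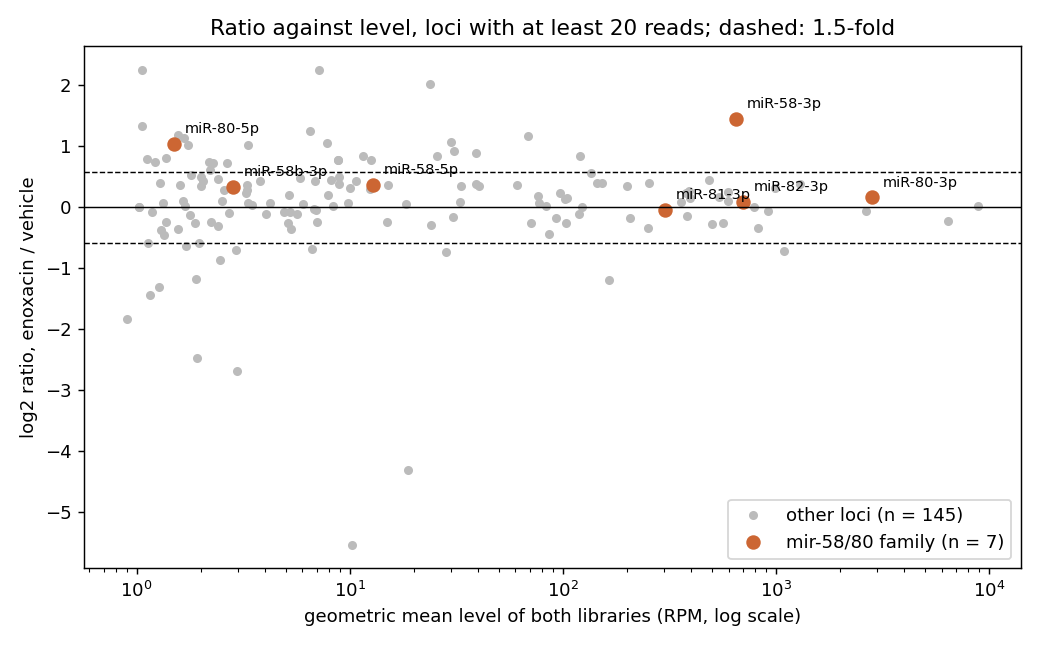
Log2 ratio of enoxacin to vehicle against the geometric mean level of both libraries in RPM (log axis), for the 7 compared family loci (orange) and the 145 other compared loci (grey); dashed lines mark 1.5-fold. miR-58-3p, at a log2 ratio of 1.45, stands above the other loci of similar level, while miR-81-3p, miR-82-3p and miR-80-3p lie near 0 with most abundant loci.

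The members were next set against each other, since a ratio between 2 loci of the same libraries does not depend on how the libraries were scaled. miR-80-3p outnumbered miR-82-3p by 3.94 to 1 in vehicle and 4.12 to 1 in enoxacin, a change of 1.05-fold (1.01 to 1.09). It outnumbered miR-81-3p by 8.75 and 10.0 to 1, a change of 1.15-fold (1.09 to 1.21). The ratio of miR-81-3p to miR-82-3p changed by 0.913-fold (0.858 to 0.971), so among these 3 members no proportion moved by more than 1.15-fold. miR-58-3p changed by 2.44-fold (2.35 to 2.54) relative to miR-80-3p. Relative to miR-82-3p the change was 2.56-fold (2.43 to 2.69), and relative to miR-81-3p it was 2.80-fold (2.63 to 2.98). For miR-58b-3p as the partner the value was 2.16-fold with a wide interval (1.23 to 3.82). In all, 10 pairs of 3p arms were compared in this way, and the 3 remaining pairs, each with miR-58b-3p, had intervals that included 1.

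The order of the members therefore differed between libraries at 1 place. In vehicle it ran miR-80-3p, miR-82-3p, miR-58-3p, miR-81-3p, and in enoxacin miR-58-3p stood before miR-82-3p. The counting intervals of all neighbours in these orders were separate. miR-58-3p made up 9.67% of the family's vehicle reads (9.39 to 9.95%) and 21.0% of its enoxacin reads (20.7 to 21.4%). miR-80-3p made up 65.7% and 58.5%, miR-82-3p 16.7% and 14.2%, and miR-81-3p 7.51% and 5.83%. With miR-58-3p left out of the denominator, miR-80-3p took 72.8% of the rest in vehicle and 74.1% in enoxacin.

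**Figure D3:**
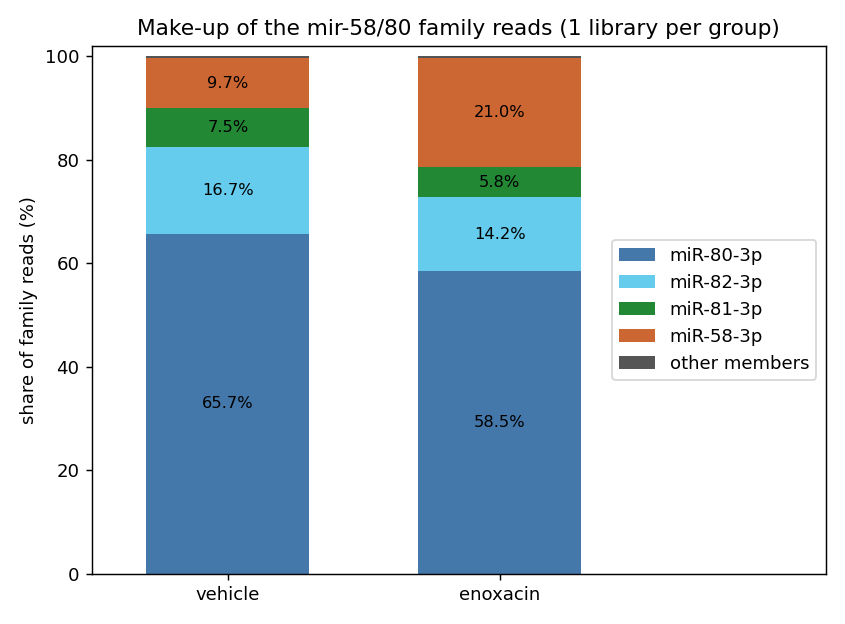
Stacked bars of the share of family reads (%) taken by each abundant 3p arm in the vehicle and the enoxacin library; all other members together form the thin dark band at the top. miR-58-3p takes 9.67% in vehicle and 21.0% in enoxacin, and the bar of each of the other 3 is shorter in enoxacin.

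The 5p arms had fewer reads than the 3p arms in mir-58, mir-58b, mir-80, mir-81 and mir-82, while the mir-2209 hairpins had too few reads to tell. All 5p arms together made up 0.313% of family reads in vehicle and 0.346% in enoxacin. Most of these reads were miR-58-5p, with 121 reads (11.3 RPM) in vehicle and 128 (14.6 RPM) in enoxacin. Its ratio was 1.29 and the interval narrowly included 1 (0.997 to 1.67). The upper bound lies below the ratio of miR-58-3p, from the same hairpin. The 5p arm was accordingly 2.80% of the mir-58 reads for vehicle (2.33 to 3.34%) and 1.34% for enoxacin (1.12 to 1.59%). Put as a ratio of arms, miR-58-3p outnumbered miR-58-5p by 34.7 to 1 in vehicle and 73.7 to 1 in enoxacin, a change of 2.12-fold (1.64 to 2.75).

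The mir-80 hairpin had a more uneven pair of arms. miR-80-5p had 11 vehicle reads (1.03 RPM) and 19 enoxacin reads (2.16 RPM). Its ratio of 2.10 passed 1.5-fold, but its interval included 1 (0.951 to 4.89), so it was not counted as higher. The 5p share of mir-80 was 0.0385% in vehicle (0.0192 to 0.0689%) and 0.0723% in enoxacin (0.0435 to 0.113%), and these intervals overlap. The remaining minor arms had few reads. miR-58b-5p had 1 read in vehicle and 5 in enoxacin, miR-81-5p had 2 and 1, and miR-82-5p had 1 and 2, with intervals that all included a ratio of 1.

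For 49 hairpins of the table both arms reached the minimum. The log2 ratio of the 3p arm minus that of the 5p arm was 1.09 for mir-58 and -0.88 for mir-80. Over the 49 hairpins the median of this difference was 0.11, with quartiles of -0.36 and 0.53. Both hairpins thus lay outside the quartiles, on opposite sides. For mir-80, however, the ratio of the 3p arm to the 5p arm changed by 0.532-fold with an interval that included 1 (0.229 to 1.18). A larger positive value than that of mir-58 was found for 5 hairpins, and a larger value in either direction for 10, so mir-58 is not the extreme case in this order. Several of the 10 rest on a minor arm with few reads, the fewest being 22, against 249 for miR-58-5p. No counting interval was computed for them.

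**Figure D4:**
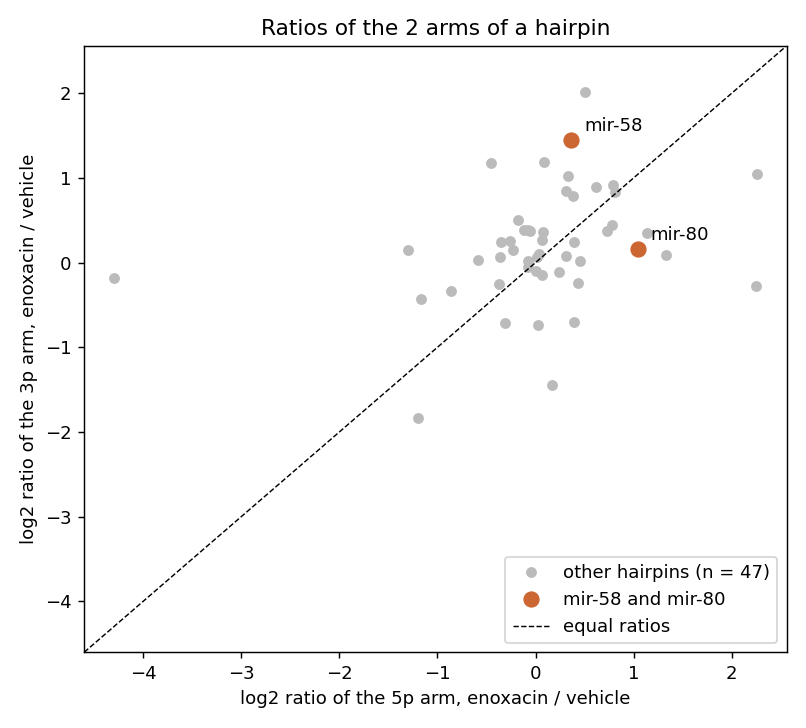
Log2 ratio (enoxacin over vehicle) of the 3p arm against that of the 5p arm for the 49 hairpins with both arms compared, with mir-58 and mir-80 in orange, the other 47 in grey, and equal ratios as the dashed line. mir-58 lies above the line, with 3p minus 5p at 1.09, and mir-80 below it, at -0.88. The counting interval of the change in arm ratio included no change for mir-80.

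The 5 loci closest to miR-58-3p in vehicle level were miR-1-3p, miR-38-3p, miR-51-5p, miR-77-3p and miR-84-5p. Their vehicle levels ran from 348 to 413 RPM, beside 393 RPM for miR-58-3p. In enoxacin they stood between 364 and 565 RPM, all below the 1073 RPM of miR-58-3p. Their ratios ran from 0.902 for the muscle miRNA miR-1-3p to 1.37 for miR-51-5p, and none met the criterion.

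The 5 loci outside the family with the ratio most like that of miR-58-3p, by the difference in log2 ratio over the 2 libraries and among loci with at least 100 reads, were miR-59-3p, miR-60-3p, miR-238-3p, miR-2214-3p and miR-74-3p. Their log2 ratios differed from that of miR-58-3p by 0.19 to 0.53, and all 5 ratios, from 1.89 to 2.41, were smaller. The most abundant of them was miR-60-3p, the marker of the intestine, with levels of 45.6 (vehicle) and 103 RPM (enoxacin). The ratio was 2.26 (2.02 to 2.53), so an intestinal marker moved with miR-58-3p, and its part in the result was not tested. The markers of muscle, neurons, and epidermis and glia had ratios of 0.902, 0.847 and 1.01, and the 8 embryonic markers ran from 0.790 to 1.32. Of the 93 loci with at least 100 reads, 2 had a ratio above that of miR-58-3p, miR-2214-5p at 4.84 and miR-47-3p at 4.06, and neither had more than 551 reads over both libraries.

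The mir-51, mir-35 and let-7 seed families were set beside this one. The summed level of the mir-51 family was 11504 RPM for vehicle and 12334 RPM for enoxacin, a ratio of 1.07 (1.06 to 1.08). The mir-35 family had a ratio of 0.945 (0.934 to 0.957) and the let-7 family one of 1.07 (1.04 to 1.11). The mir-58/80 ratio of 1.26 was the highest of the 4, and its value without miR-58-3p, 1.10, was close to those of the mir-51 and let-7 families. Each of the other families also had 1 locus higher by the criterion, of 12, 14 and 9 compared for mir-51, mir-35 and let-7. Loci counted as lower were 2, 1 and 0 in the same order. Over all 152 compared loci 13.2% were higher and 7.89% lower.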

How the data were processed

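Small RNA of whole worms was sequenced, with 1 library per group (enoxacin and vehicle). Per the labels' protocols, TRIzol RNA with integrity numbers above 9 was enriched for small RNA (10 µg per group) and prepared with a SOLiD kit. The submitters' processing notes name Bowtie2, bedtools and ce10. Neither gives versions or says how multiply matching reads were treated. The authors deposited raw read counts per mature miRNA locus, RPM values scaled by 1 fixed total per library, and the ratio of RPM values with its log2. The deposited ratio equalled the one computed here where both counts were above 0.

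Each ratio was computed from counts and the authors' totals, and its 95% interval is the exact Clopper-Pearson interval of the enoxacin share of reads. Intervals of levels are exact Poisson, and those of shares exact binomial. Ratios between loci have exact conditional odds-ratio intervals. All cover counting error only, and without molecular identifiers reads may be copies of 1 molecule. Log2 ratios used a pseudocount of 0.5 reads. The limit for a count of 0 is 3 reads. No p-value was computed. The criterion was tested on simulated data that held counting error only. That simulation cannot show how the criterion behaves under variation between replicate libraries. The named miRNAs are all members, those without a read being named with the limit of a count of 0, the markers of tissues and embryos, and outside the family the 5 nearest to miR-58-3p in ratio and the 5 nearest in vehicle level. miR-54-3p, miR-66-5p, miR-47-3p and miR-2214-5p were named after their values were seen. The members, lists and settings were chosen with earlier results of these data known. Python 3.11.15, numpy 2.4.6, pandas 2.3.3, scipy 1.17.1, R 4.3.3 and edgeR 4.0.16 (TMM factors only) were used.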

Additional observations from a re-analysis of the deposited data

How the results depend on the processing

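miR-58-3p was the 1 member counted as higher, and 0 were lower, under each of the 11 alternatives to the scaling, pseudocount, minimum, threshold and summing of arms. At a ratio of 2.73 and 13635 reads, miR-58-3p lay past even the 2-fold threshold and the minimum of 100 reads. Its own call could therefore hardly change. Its ratio ran from 2.47 (median of ratios) to 2.79 (table without the family). The summed ratio of the whole family stayed above 1 under each scaling. It was 1.14 under median-of-ratios and under TMM scaling (1.136 and 1.143). With the miRNA table without its 3 most abundant loci it was 1.20, and with the table without the family 1.28. These scalings shift all log2 ratios by -0.15, -0.14, -0.07 and 0.03. Without miR-58-3p the summed ratio was 1.10 under the authors' totals, a log2 ratio of 0.136. The median-of-ratios and TMM shifts are at least that large, so this remainder has no settled direction. Leaving out mir-2209 or the 5p arms gave 1.26. Over all family hairpins the 5p share was 0.313% in vehicle and 0.346% in enoxacin, since mir-80 dominates that sum. Another 59 ratios, log2 ratios and shares were recomputed for single members and for miR-81-3p with miR-82-3p summed (a sum rescaled only after seeing the data). Of these, 21 moved outside their counting interval and 38 did not. The 38 include log2 ratios with another pseudocount, which have no interval. The only called direction, that of miR-58-3p, did not turn. The ratios of miR-82-3p and of the summed pair crossed 1 under median-of-ratios and TMM scaling. No paired analysis was possible because each group has 1 library and no test was made; for the same reason no replicate could be left out. Depth limits the 9 loci under 20 reads and the minor arms.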
